A study of Mus musculus with 6 samples.

Results

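The genes described here serve protein folding and export in the endoplasmic reticulum (ER) and the unfolded protein response (UPR). They were taken as a list of gene names, drawn up with earlier results of these data known, and cover ER chaperones, disulfide bond enzymes, genes of ER-associated degradation (ERAD), the translocon with its TRAP complex and signal peptidase, and the UPR sensors with *Xbp1*. All 41 were found among the 13809 gene symbols of the count table, and all 41 were among the 13804 genes tested after edgeR's filter on low counts. They were compared between hearts of wildtype (WT) and pkm1-knockout (KO) mouse embryos at embryonic day 18.5 (E18.5), with 3 RNA-seq libraries per genotype. The KO embryos were homozygous for a small CRISPR/Cas9 deletion in the exon of *Pkm* that is specific to *Pkm1*, a splice form of pyruvate kinase. The deletion was made in zygotes of BDF1 mice, a hybrid of C57BL/6J and DBA/2, and embryos homozygous for it, from heterozygote crosses, carried it in every cell. How many founder lines were used is not stated. The study describes the tissue as ventricular and the labels as heart, and the RNA was total RNA depleted of ribosomal RNA.

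Proteins that are secreted or sit in membranes enter the ER through the Sec61 translocon, lose their signal peptide to signal peptidase, and fold with the help of chaperones and disulfide isomerases. Chains that fail to fold are sent back to the cytosol and degraded, the process called ERAD. When unfolded chains build up, the sensors IRE1 (encoded by *Ern1*), PERK (*Eif2ak3*) and ATF6 are released from the chaperone BiP (*Hspa5*), and their pathways lower translation and raise the transcription of chaperone and ERAD genes. XBP1, made active by IRE1 through splicing of its mRNA, and cleaved ATF6 act on these promoters. The classic ER stress element (ERSE) there pairs an NF-Y box, bound by the NF-Y complex of NFYa, NFYb and NFYc, with a CCACG element for ATF6. NFYa is also the factor named in the title of the study. Counts per gene show neither the splicing of *Xbp1* mRNA nor the cleavage of ATF6 nor the phosphorylation of PERK and IRE1.

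Of the 41 ER genes, 9 (22%) differed between KO and WT at an adjusted p under 0.05 (quasi-likelihood test of edgeR, adjusted by Benjamini-Hochberg over 13804 genes), where 30.3% of all tested genes did. In KO hearts 7 of the 41 (17.1%) fell, against 15.7% of all genes, and 2 (4.88%) rose, against 14.6%. The genes that fell were the chaperones *Hspa5*, *Calr*, *Hsp90b1* and *Manf*, the ERAD gene *Sel1l*, the sensor *Eif2ak3* and the transcription factor *Xbp1*. The genes that rose were *Ero1l*, an oxidase that recharges the disulfide isomerases, and *Atf6b*, a relative of *Atf6*. All 9 changes were under 1.5-fold, from a fall of 5.76% for *Hsp90b1* to a rise of 31.4% for *Ero1l*. Over the 41 genes the median log2 fold change was -0.05, against 0.0017 over all genes. The estimate was below 0 for 29 of the 41 genes and for 49.6% of all genes. The libraries of the 2 genotypes did not overlap for 11 members that were lower in KO and 6 that were higher, 41.5% of the members together, against 42.4% of all genes (21.4% lower and 21% higher). The share of members called was thus below that of all genes, and the share without overlap was near it. DESeq2 called 6 lower and 1 higher, and with 1 library left out 6 to 10 were lower and 1 to 3 higher (1 higher without WT b or without KO c).

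**Figure D1:**
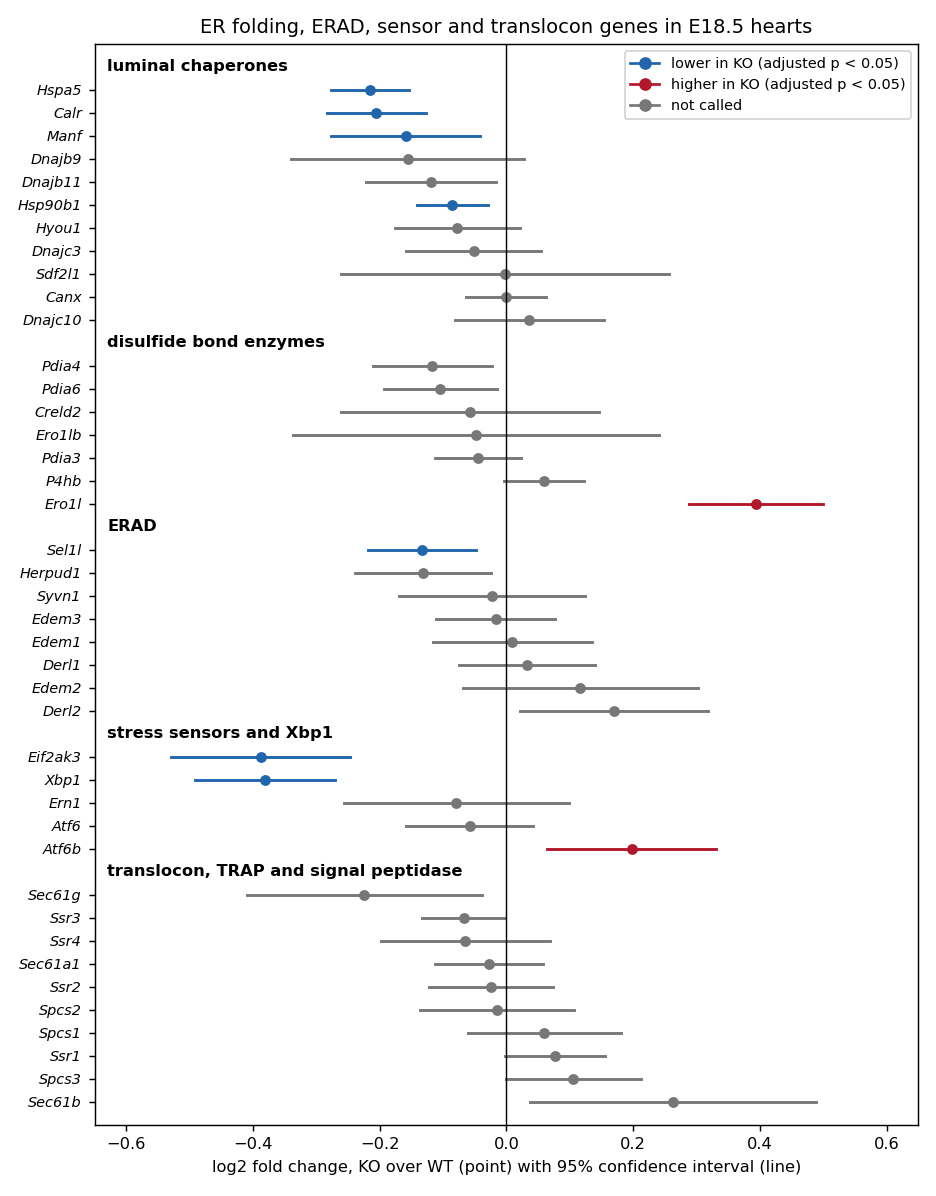
Log2 fold change of each of the 41 ER genes, KO over WT (horizontal axis), by role (rows), as a point with its 95% confidence interval from edgeR before adjustment for multiple genes. The 7 genes in blue fell and the 2 in red rose at an adjusted p under 0.05, with *Eif2ak3* (-0.39) and *Ero1l* (0.39) farthest from 0, and the 10 genes of the translocon, TRAP complex and signal peptidase are all grey.

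The libraries held 15567624 to 19875546 counts, and 3 counts, taken as the limit of detection, were 0.153 to 0.197 CPM (counts scaled to library size by TMM), which covers counting error only. Every member was well above this limit, from 73 counts in a library for *Ero1lb* to 9568 for *Hsp90b1*. The targeted gene, *Pkm*, was at 1318 ± 41.1 CPM in WT hearts and 542 ± 10.1 CPM in KO hearts (n = 3 libraries each, SD). The columns of the table name only the genotype, and the libraries are therefore called a, b and c here. WT c lay farthest from its group (mean absolute log2 distance from the group's median 0.0869, against 0.0562 to 0.0659 for the other 5). Without WT c, 10 members were lower and 3 higher past the threshold. All 3 KO libraries had 0 counts for 4 genes of the Y chromosome (*Kdm5d*, *Ddx3y*, *Uty* and *Eif2s3y*) and 2237 to 2332 CPM of *Xist*, while every WT library had at least 516 counts for each of these 4 genes. Sex and genotype can therefore not be told apart in these libraries. Markers of the cell types of the heart differed too, where 15.7% of all tested genes fell and 14.6% rose. Of 6 cardiomyocyte markers 5 fell and 1 rose, and their summed level was 45349 to 48272 CPM in WT and 40627 to 41661 in KO. The rise, that of *Myh7* (log2 fold change 0.05, named after its value was seen), was lost with DESeq2, with the exact test and without WT a, WT b, KO a or KO c. The 7 fibroblast markers summed to 3925 to 3976 CPM in WT and 3657 to 3729 in KO, with 4 of 7 lower. These 4 became 1 with DESeq2, without WT a or without WT b, 2 without KO b or without KO c, 3 with the exact test and 5 with voom. The 5 endothelial markers summed to 974.8 to 977.4 CPM in WT and 909.8 to 921.2 in KO, with 2 of 5 lower. The 6 atrial markers summed to 594.8 to 601.1 CPM in WT and 1006 to 1030 in KO, with 3 of 6 higher (*Myl4*, *Myl7* and *Nppa*). The others, *Nr2f1* (log2 fold change -0.23), *Nr2f2* (0.06) and *Stard10* (-0.09), were not called. The 4 epicardial markers summed to 66.5 to 70.2 CPM in WT and 82.4 to 87.1 in KO, with 3 of 4 higher. Of 5 immune markers 1 was lower (29.5 to 32.5 CPM summed in WT, 28.8 to 35.8 in KO), and of 5 erythroid markers 2 were tested and 1 was higher (27.2 to 28.0 CPM summed in WT, 31.0 to 37.5 in KO). In bulk tissue, fewer cells of a type and less RNA per cell cannot be told apart. The part of sex and of cell types in the ER results was not tested.

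The ERSE is the promoter feature by which chaperone genes of the ER are usually grouped. RefSeq windows from 250 bases before to 50 bases after the start (GRCm38.p6) were found for 34 of the 41 members. None was found for *Hyou1*, *Manf*, *Derl1*, *Atf6*, *Sec61a1*, *Ssr2* and *Spcs3*, so these were not searched. Both strands were searched for the ERSE, written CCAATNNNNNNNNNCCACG, where N is any base. It was in 37 of 27025 genes with a window (0.137%) and in 9 of the 34 members (26.5%), namely *Hspa5*, *Hsp90b1*, *Calr*, *Canx*, *Pdia6*, *Dnajc3*, *Creld2*, *Syvn1* and *Ero1lb*. The second form, ERSE-II, written ATTGGNCCACG, was in 12 genes (0.0444%), of which 2 were members, *Dnajb11* and *Herpud1*. The sites of the 3 genes that fell and of 2 uncalled genes with the same element are printed. Those of the 2 genes with ERSE-II follow. The fixed letters are the same within each form because the search required them. Each is given 5′ to 3′ on the strand that reads as the element does, with 8 bases on either side, and capitals mark the fixed letters.
*Hspa5*, ERSE at chr2:34772017-34772051, plus strand: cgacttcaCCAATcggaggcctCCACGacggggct
*Calr*, ERSE at chr8:84847067-84847101, plus strand: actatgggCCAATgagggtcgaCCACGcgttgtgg
*Hsp90b1*, ERSE at chr10:86705630-86705664, minus strand: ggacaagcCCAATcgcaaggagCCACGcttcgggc
*Hsp90b1*, ERSE at chr10:86705525-86705559, plus strand: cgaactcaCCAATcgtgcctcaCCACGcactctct
*Canx*, ERSE at chr11:50325792-50325826, minus strand: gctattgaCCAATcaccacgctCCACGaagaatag
*Pdia6*, ERSE at chr12:17266483-17266517, plus strand: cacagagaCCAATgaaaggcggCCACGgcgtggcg
*Dnajb11*, ERSE-II at chr16:22857844-22857870, plus strand: cggcggcgATTGGcCCACGcctggctg
*Herpud1*, ERSE-II at chr8:94386369-94386395, plus strand: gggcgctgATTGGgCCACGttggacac

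Only exact matches were counted. Near matches were not searched for. The windows of *Herpud1*, *Pdia3* and *Pdia4*, for example, each hold a site that differs from the ERSE in 1 fixed letter. The 9 genes with an exact ERSE did not all change. *Hspa5*, *Calr* and *Hsp90b1* fell, none of the 9 rose, and 6 were not called, among them *Canx* with a log2 fold change of -0.0008 (95% confidence interval -0.06 to 0.06). At an unadjusted p under 0.05 the edgeR test added *Pdia6* (log2 fold change -0.10). Among all tested genes, 17 had an ERSE in their window, of which 4 (23.5%) fell and 1 (5.88%) rose, against 15.4% and 14.9% of the 10860 without it. The 8 that are no members had a median log2 fold change of 0.04, with 1 lower (*Hnrnpa3*, -0.41) and 1 higher (*Adcy3*, 0.42). *Eif2ak3* and *Xbp1*, the members with the largest falls, had neither form of the element in their windows. The shorter NF-Y box, CCAAT, lies inside the ERSE and, read on the other strand, inside ERSE-II. It was in 25 of the 34 members (73.5%), against 41.1% of all genes with a window and 42.6% of the 10877 tested genes with a window. Of the 25 members with a box 5 fell and 1 rose. *Xbp1* and *Ero1l*, which changed in opposite directions, had no box. Among all tested genes, 16.8% of those with a box and 14.4% of those without fell, and 13.6% and 15.9% rose. The core ACGTG, found in sites of ATF6 and XBP1, was in 14 members (41.2%), against 29.1% of tested genes with a window, and 2 of these 14 fell and 2 rose. Among all tested genes with this core 15.5% fell and 16% rose. These matches describe letters in the windows and say nothing of binding.

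**Figure D2:**
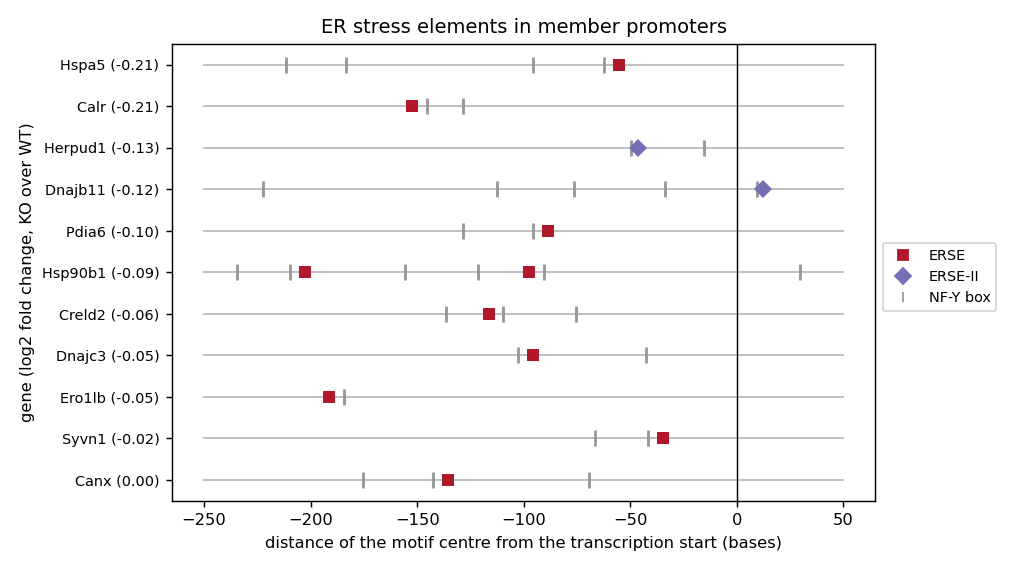
Position of the ERSE (red squares), ERSE-II (purple diamonds) and NF-Y box (grey ticks) in the 11 member promoters with either form of the element, as the distance of the motif's centre from the transcription start in bases (horizontal axis), with genes ordered by their log2 fold change, KO over WT (in brackets). The element is found both at the top, in *Hspa5* (-0.21), and at the bottom, in *Canx* (log2 fold change -0.0008). *Hsp90b1* holds 2 exact matches.

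Of the 7 members that fell, 4 were chaperones of the ER lumen. Of the 11 genes with this role 4 fell and 0 rose, where 15.7% and 14.6% of all tested genes did. At an unadjusted p under 0.05 the same edgeR test gave 5 lower and 0 higher, and 20.8% lower and 20% higher among all genes. DESeq2 called 3 lower and 0 higher, and 2 were lower without WT b. The summed level of the 11 genes was 2045 to 2071 CPM in the WT libraries and 1876 to 1923 in the KO libraries, without overlap, a ratio of 0.926. Such a sum is set mainly by abundant genes. The largest falls in mean CPM were those of *Hspa5* (423 to 365), *Calr* (371 to 321) and *Hsp90b1* (483 to 455), which were called. The median log2 fold change of the 11 genes was -0.09.

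*Hspa5* encodes BiP, the Hsp70 of the ER and the partner that holds the UPR sensors inactive. The gene lies at chr2:34771970-34777547 (GRCm38, plus strand). Its level was 421, 430 and 419 CPM in WT a, b and c and 373, 370 and 352 CPM in KO a, b and c. The highest KO library was below the lowest WT library. Its log2 fold change was -0.21 (standard error 0.0299, edgeR Benjamini-Hochberg adjusted p = 3.54e-06), a fall of 13.8%. It stayed called in all 14 alternative analyses (other scalings, filters and tests, and each library left out in turn), with log2 fold changes between -0.23 and -0.19.

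*Calr* encodes calreticulin, a soluble lectin chaperone that also stores calcium in the ER and is needed for the heart to develop. It lies at chr8:84841850-84846934 on the minus strand. It was at 345, 368 and 399 CPM in WT a, b and c and at 330, 316 and 318 CPM in KO a, b and c. The groups did not overlap, but the WT libraries were spread over a wider range than the KO libraries, and WT c was the highest of the 6. KO over WT this was a log2 fold change of -0.21 (standard error 0.0379, edgeR Benjamini-Hochberg adjusted p = 1.50e-04), and without WT c it was -0.15 and still called. *Canx*, the membrane-bound partner calnexin, was at 445 ± 17.4 CPM in WT hearts and 445 ± 8.22 CPM in KO hearts (n = 3 each, SD).

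*Hsp90b1* encodes GRP94, the Hsp90 of the ER. It lies at chr10:86690209-86705509 on the minus strand. It was at 481, 488 and 480 CPM in WT a, b and c and at 459, 449 and 458 CPM in KO a, b and c. All 3 KO libraries were below all 3 WT libraries, by a small step. *Hsp90b1* had a log2 fold change of -0.09 (standard error 0.0272, edgeR Benjamini-Hochberg adjusted p = 0.0180), and the call was lost without WT b or without KO b (adjusted p up to 0.0896). Of its exon bases, 10.3% overlap those of *1810014B01Rik* on the other strand, and whether the authors counted by strand is not given in the sources used here. *Manf*, a secreted factor that binds BiP, was at 51.3 ± 3.18 CPM in WT hearts and 46.0 ± 2.20 CPM in KO hearts (n = 3 each, SD). It fell with a log2 fold change of -0.16 (edgeR Benjamini-Hochberg adjusted p = 0.0362). The *Manf* libraries overlapped, and the call was lost with DESeq2 and without WT b, KO a or KO c (adjusted p up to 0.190).

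The other 7 luminal genes were not called. *Dnajb11*, a J-protein partner of BiP, came nearest, at 58.4 ± 1.79 CPM in WT hearts and 53.7 ± 1.183 CPM in KO hearts (n = 3 each, SD), without overlap (log2 fold change -0.12, edgeR Benjamini-Hochberg adjusted p = 0.0725). *Dnajb9*, a J-protein that is a sensitive target of XBP1, had a log2 fold change of -0.16 with a 95% confidence interval from -0.34 to 0.03, and was at -0.082 without WT b and at -0.23, then called, without WT c. *Hyou1*, the large Hsp70 that exchanges nucleotide on BiP, was at -0.08. The J-proteins *Dnajc3* and *Dnajc10* were at -0.05 and 0.04, and *Sdf2l1*, which works with J-proteins, was at -0.0025. The interval for *Sdf2l1* ran from -0.26 to 0.26, so a change of the size seen in *Hspa5* lies within it.

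**Figure D3:**
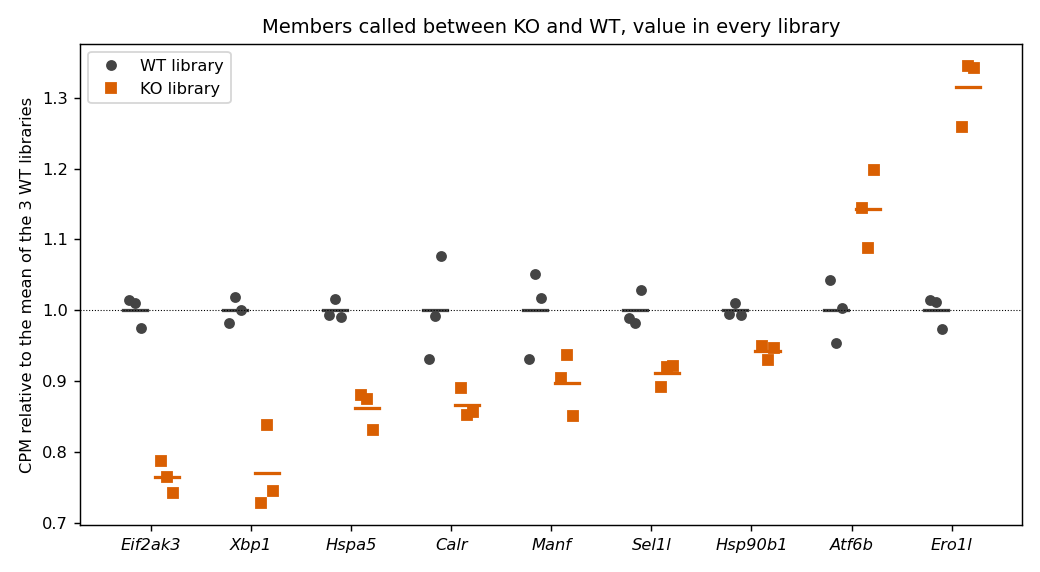
CPM of the 9 called members in each of the 6 libraries, divided by the mean of the 3 WT libraries (vertical axis), with WT as dark circles, KO as orange squares and bars at the group means. The KO squares lie below the WT circles for 6 of the 7 genes that fell and above them for *Atf6b* and *Ero1l*, while those of *Manf* overlap.

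Of 7 disulfide bond enzymes 1 rose and 0 fell, where 14.6% and 15.7% of all tested genes did. At an unadjusted p under 0.05 the edgeR test gave 1 higher and 2 lower, against 20% and 20.8% of all genes. DESeq2, limma's voom and edgeR's exact test each called 1 higher and 0 lower. The summed level of the 7 enzymes was 733 to 756 CPM in WT and 738 to 754 CPM in KO, a ratio of 1.00.

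*Ero1l* encodes ERO1α, the oxidase that passes electrons from protein disulfide isomerase to oxygen. It lies at chr14:45283087-45318771 on the minus strand. It was at 48.2, 48.0 and 46.2 CPM in WT a, b and c and at 59.8, 63.8 and 63.7 CPM in KO a, b and c. Every KO library was above every WT library, and the gap between the groups was wider than the range within either. *Ero1l* had a log2 fold change of 0.39 (standard error 0.0511, edgeR Benjamini-Hochberg adjusted p = 1.22e-06), a rise of 31.4%, and it stayed called in all 14 alternatives. *Ero1lb*, which encodes the second oxidase and is best known from the pancreas, was at 5.30 ± 0.466 CPM in WT hearts and 5.14 ± 0.338 CPM in KO hearts (n = 3 each, SD). The interval of its log2 fold change, from -0.34 to 0.24, left out the value seen for *Ero1l*. Of its 50-base words 9.26% occur in other genes, mainly *Gm18562*.

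*P4hb*, the classic protein disulfide isomerase, was at 251 ± 3.90 CPM in WT hearts and 262 ± 0.213 CPM in KO hearts (n = 3 each, SD). Its libraries did not overlap, but the log2 fold change of 0.06 did not pass the test (edgeR Benjamini-Hochberg adjusted p = 0.155). *Pdia4* and *Pdia6*, both isomerases known as UPR targets, had log2 fold changes of -0.12 and -0.10 (edgeR Benjamini-Hochberg adjusted p = 0.0559 and 0.0688). *Pdia4* was called without WT c or without KO a, and *Pdia6* without WT a. *Pdia3*, which works on glycoproteins held by calnexin and calreticulin, was at -0.04, and *Creld2* at -0.06.

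Of the 8 ERAD genes 1 fell and 0 rose, where 15.7% and 14.6% of all tested genes did. At an unadjusted p under 0.05 the edgeR test gave 2 lower and 1 higher, against 20.8% and 20% of all genes. DESeq2, voom and the exact test called 1 lower and 0 higher. The summed level of the 8 genes was 381 to 393 CPM in WT and 369 to 387 CPM in KO, with overlap. *Sel1l* encodes the adaptor of the ubiquitin ligase HRD1 (*Syvn1*) in the ER membrane. It lies at chr12:91806043-91849157 on the minus strand. It was at 95.1, 94.4 and 98.9 CPM in WT a, b and c and at 85.8, 88.5 and 88.6 CPM in KO a, b and c. The groups did not overlap. The log2 fold change was -0.13 (standard error 0.0417, edgeR Benjamini-Hochberg adjusted p = 0.0162), and the call was lost without KO a (adjusted p = 0.0825). *Syvn1* itself was at 30.2 ± 2.22 CPM in WT hearts and 29.6 ± 2.54 CPM in KO hearts (n = 3 each, SD).

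*Herpud1*, a short-lived scaffold of the same ligase and a strong UPR target, was at 57.4 ± 2.67 CPM in WT hearts and 52.3 ± 1.64 CPM in KO hearts (n = 3 each, SD). All 3 KO libraries were below the WT libraries, and the log2 fold change of -0.13 just missed the threshold (edgeR Benjamini-Hochberg adjusted p = 0.0571). *Derl2*, a channel protein, had an estimate in the other direction, at 21.6 ± 0.722 CPM in WT hearts and 24.2 ± 1.41 CPM in KO hearts (n = 3 each, SD), without overlap (log2 fold change 0.17, edgeR Benjamini-Hochberg adjusted p = 0.0756). Its paralog *Derl1* was at 0.03. The lectin genes *Edem1*, *Edem2* and *Edem3*, which mark misfolded glycoproteins by trimming mannose, were at 0.01, 0.12 and -0.02, and none was called.

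Among the sensors and *Xbp1*, 2 of 5 genes fell and 1 rose, where 15.7% and 14.6% of all tested genes did. The falls of *Eif2ak3* and *Xbp1* were the largest among the 7 members that fell. The summed level of the 5 genes was 231 to 246 CPM in the WT libraries and 211 to 218 CPM in the KO libraries, without overlap. *Eif2ak3* encodes PERK, the kinase that slows translation. It lies at chr6:70844515-70905245 on the plus strand. It was at 27.0, 26.9 and 26.0 CPM in WT a, b and c and at 21.0, 20.4 and 19.8 CPM in KO a, b and c. The 3 values of each genotype lay close together, and the groups did not overlap. *Eif2ak3* had a log2 fold change of -0.39 (standard error 0.0687, edgeR Benjamini-Hochberg adjusted p = 9.38e-05), a fall of 23.6%. Of its exon bases 8.05% overlap those of *Gm43292* on the other strand.

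*Xbp1* encodes the transcription factor spliced by IRE1. It lies at chr11:5520659-5525893 on the plus strand. It was at 63.9, 66.3 and 65.2 CPM in WT a, b and c and at 47.4, 54.6 and 48.5 CPM in KO a, b and c. KO b was the highest KO library and was still below every WT library. *Xbp1* had a log2 fold change of -0.38 (standard error 0.0541, edgeR Benjamini-Hochberg adjusted p = 4.67e-06), a fall of 23.2%. *Eif2ak3* and *Xbp1* both stayed called in all 14 alternatives, with log2 fold changes of -0.41 to -0.37 and of -0.44 to -0.34.

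*Ern1* encodes IRE1α, the nuclease that splices *Xbp1* mRNA, and lies at chr11:106394650-106487852 on the minus strand. It was at 19.2, 16.02 and 19.8 CPM in WT a, b and c and at 17.2, 16.6 and 17.98 CPM in KO a, b and c. The groups overlapped, with WT b the lowest of the 6 libraries. The log2 fold change of -0.08 had a 95% confidence interval from -0.26 to 0.10 (edgeR Benjamini-Hochberg adjusted p = 0.528).

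*Atf6*, at chr1:170704674-170867771 on the minus strand, encodes the membrane-bound factor that is cut in the Golgi. It was at 107, 96.0 and 92.6 CPM in WT a, b and c and at 94.1, 91.5 and 98.8 CPM in KO a, b and c. The groups overlapped. Its log2 fold change was -0.06 (edgeR Benjamini-Hochberg adjusted p = 0.394), and without WT a, the highest library, it was 0.0053.

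*Atf6b*, at chr17:34647146-34655074 on the plus strand, encodes the related factor ATF6β, a weaker activator. It was at 28.7, 26.3 and 27.7 CPM in WT a, b and c and at 31.5, 29.996 and 33.0 CPM in KO a, b and c. All 3 KO libraries were above all 3 WT libraries. *Atf6b* had a log2 fold change of 0.20 (standard error 0.0650, edgeR Benjamini-Hochberg adjusted p = 0.0224), and the call was lost with DESeq2 and without WT b, KO a or KO c (adjusted p up to 0.122).

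**Figure D4:**
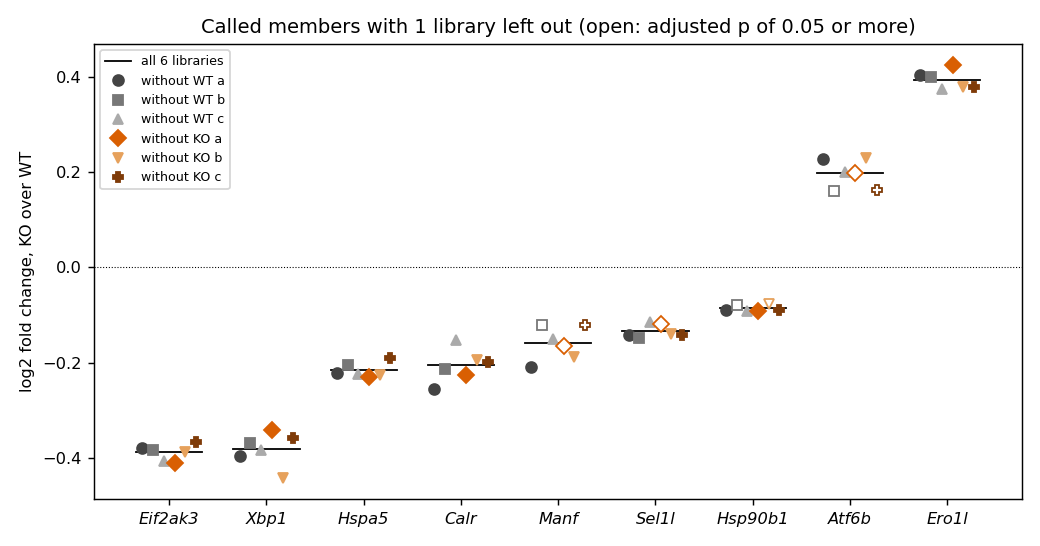
Log2 fold change, KO over WT (vertical axis), of the 9 called members with all 6 libraries (black lines) and with each library left out in turn (symbols), open where the adjusted p was 0.05 or more. No symbol crosses 0, all 6 symbols are filled for *Eif2ak3*, *Xbp1*, *Hspa5*, *Calr* and *Ero1l*, and at least 1 is open for *Manf*, *Sel1l*, *Hsp90b1* and *Atf6b*.

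The genes by which chains enter the ER were not called. Of 10 genes of the translocon, TRAP complex and signal peptidase, edgeR's quasi-likelihood test called 0, against 30.3% of all tested genes. At an unadjusted p under 0.05 it gave 2 lower and 1 higher, against 20.8% and 20% of all genes. DESeq2 and voom called 0, and edgeR's exact test called 1, *Sec61g*, lower. The summed level of the 10 genes was 754 to 769 CPM in WT and 742 to 781 CPM in KO, a ratio of 0.995. *Sec61a1*, the channel itself, was at 116 ± 6.08 CPM in WT hearts and 114 ± 2.05 CPM in KO hearts (n = 3 each, SD). The small subunits had estimates of opposite sign, *Sec61g* with a log2 fold change of -0.22 and *Sec61b* with 0.26 (edgeR Benjamini-Hochberg adjusted p = 0.0614 and 0.0713). Without WT c or without KO c *Sec61g* was at -0.087 and -0.15, and without WT b, where it was called, at -0.33. *Sec61b* was at 0.17 without KO c and at 0.37, then called, without KO a. Both estimates are uncertain for a further reason, since 17.4% of the 50-base words of *Sec61b* and 14.8% of those of *Sec61g* occur in other genes, chiefly *Gm10320* and *Gm10177*, and the authors' counting could split such reads. Of the TRAP subunits, which assist the channel, *Ssr3* was lower in all 3 KO libraries (log2 fold change -0.07, edgeR Benjamini-Hochberg adjusted p = 0.113) and *Ssr1* higher in all 3 (0.08, adjusted p = 0.131). *Ssr2* was at -0.02, and *Ssr4*, the only member on the X chromosome, at -0.06. The signal peptidase genes *Spcs1*, *Spcs2* and *Spcs3* were at 0.06, -0.02 and 0.11, and none was called. Exons of *Glt8d1* on the other strand overlap 16.3% of the exon bases of *Spcs1*, and those of *Gm10704* 12.8% of *Ssr2*.

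Levels between genes can be compared only per length, here as CPM per kb of all annotated exons of a gene in GENCODE, which understates genes with long rare transcripts. On this scale *Calr* (129), *Hsp90b1* (120), *Hspa5* (100.1), *Canx* (94.8) and *P4hb* (87.9 CPM per kb in WT) were the most abundant members. All 5 lay above the 97th percentile of the 13708 tested genes that had a length. *Xbp1* was at 20.1 CPM per kb in WT and 15.4 in KO, above the sensors in every library. *Atf6* and *Atf6b* were at 10.7 and 9.99, *Eif2ak3* at 4.43 and *Ern1* at 2.24 CPM per kb in WT. *Ero1l* was at 8.98 CPM per kb in WT and 11.8 in KO, and *Ero1lb*, the least abundant member, at 0.797 in WT. The genes that were called thus ranged from the most abundant chaperone to a sensor near the middle of all genes (*Eif2ak3*, 45.3rd percentile).

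**Figure D5:**
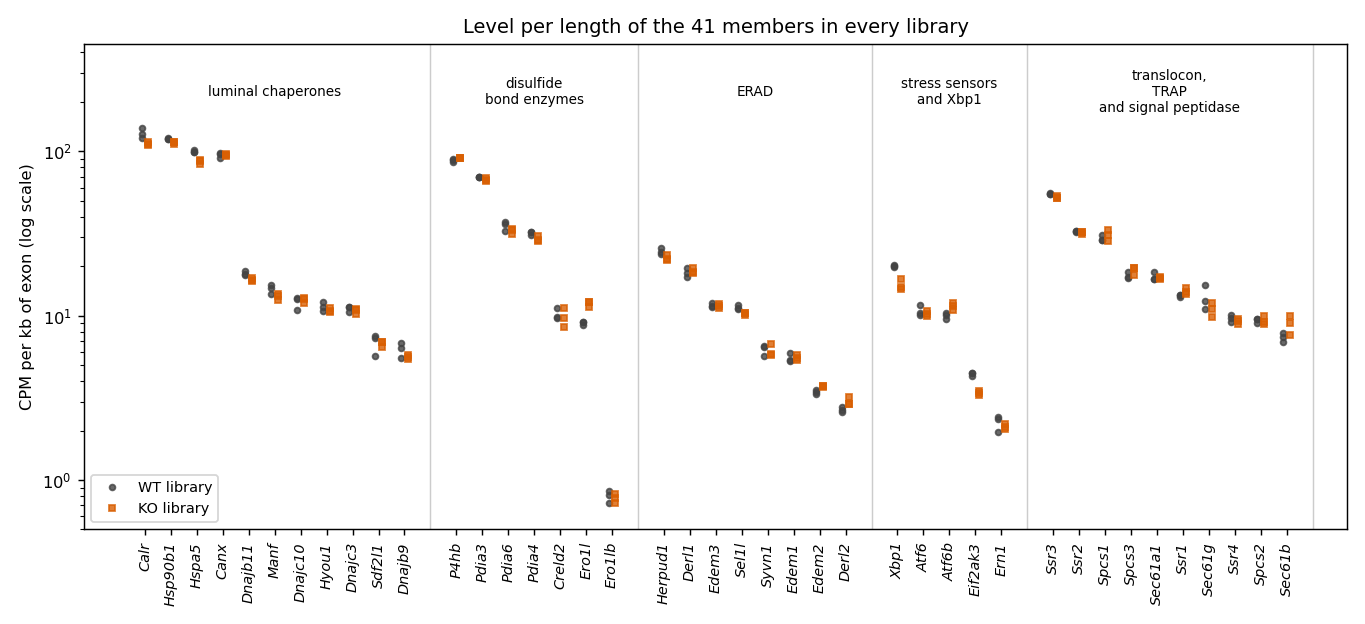
Level per length (CPM per kb of exon, log scale, vertical axis) of the 41 members in each WT library (dark circles) and KO library (orange squares), grouped by role and ordered by the WT mean. The members span from 0.797 (*Ero1lb*) to 129 CPM per kb (*Calr*) in WT, and the distance between genotypes is small beside the distance between genes.

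The wider ER and secretory machinery was read from 5 further lists of 109 genes, of which 106 were tested. Of these, 16 (15.1%) fell and 13 (12.3%) rose, near the 15.7% and 14.6% of all genes, and their median log2 fold change was -0.04. The 16 became 9 with DESeq2, 10 without WT b and 7 without KO a. Of 23 genes of ER exit and retrieval 8 fell and 1 rose (0 with DESeq2 and without WT a or KO c), and their summed level was 2082 to 2111 CPM in WT and 1962 to 2010 in KO. They included the COPII coat genes *Sec24d* (log2 fold change -0.26) and *Sec23a* (-0.24) and the cargo receptor *Tmed2* (-0.25). Of 24 other folding genes 1 fell and 5 rose. The 5 became 3 without WT b or without KO a, and the fall was lost with DESeq2 and without WT b, KO a or KO b. They included *Uggt2* (0.31), a relative of the enzyme that returns unfolded glycoproteins to calnexin, *Erp44* (0.27), which retains ERO1 in the early secretory pathway, and *Mogs* (0.23), which removes the first glucose from new N-glycans. Their summed level was 986 to 1011 CPM in WT and 1024 to 1032 in KO, so it did not overlap and lay on the other side from that of the luminal chaperones.

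Of 20 other ERAD genes 5 fell and 3 rose, where 15.7% and 14.6% of all tested genes did. The 5 became 2 with DESeq2, 3 without WT b or without KO c and 1 without KO a, and DESeq2 again called 3 higher, so which direction held more genes depended on the test and the library left out. *Ufd1l* (-0.29), a cofactor of the segregase VCP, and *Vimp* (-0.26), a membrane selenoprotein, fell, and *Sel1l3*, a relative of *Sel1l*, rose from 1.43 ± 0.281 to 3.06 ± 0.161 CPM (SD, n = 3). Of 24 genes of targeting, translocation and glycosylation 2 fell and 1 rose. They were *Dad1* (-0.24), a subunit of the oligosaccharyltransferase, *Srpr* (-0.12), the receptor of the signal recognition particle, and *Srp9* (0.22), a protein of that particle. The call of *Srpr* was lost in 6 of the 14 alternatives, those of *Mogs* and *Vimp* in 4, that of *Dad1* in 3 and that of *Srp9* in 2. These were analyses with a library left out and, for *Srpr*, *Mogs* and *Vimp*, also DESeq2. The estimate for *Dad1* was -0.12 without WT c, its highest library.

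Of 15 factors that process or partner the UPR regulators 3 rose and 0 fell, where 14.6% and 15.7% of all tested genes did. At an unadjusted p under 0.05 the edgeR test gave 3 higher and 2 lower, against 20% and 20.8% of all genes. DESeq2, voom and the exact test called 3 higher and 0 lower. *Traf2*, which couples IRE1 to kinase signalling, had a log2 fold change of 0.41. The NF-Y subunit genes *Nfya* and *Nfyc* rose by 0.27 and 0.22 on the log2 scale (edgeR Benjamini-Hochberg adjusted p = 6.92e-04 and 7.73e-04), and *Nfyb* was at -0.02. *Nfya* was at 41.9, 45.7 and 41.5 CPM in WT a, b and c and at 51.4, 49.7 and 54.4 CPM in KO a, b and c. The *Nfya* mRNA was thus higher in all 3 KO libraries. By qRT-PCR the paper found it unaltered in KO hearts, and its western blots and staining showed less NFYa protein. Counts of RNA do not show protein levels.

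The targets of the PERK branch, which runs through the translation-controlled factor ATF4, were read as a list of 18 genes, of which 17 were tested. Of these, 6 fell and 6 rose, 70.6% together, against 30.3% of all genes, so the list did not move one way. The largest changes were those of *Atf3*, a stress-induced factor (log2 fold change -3.12), *Chac1*, a glutathione-degrading enzyme (2.61), and *Slc7a11*, the cystine transporter (-2.45). *Atf3* was at 78.5, 83.7 and 82.7 CPM in WT a, b and c and at 10.3, 10.99 and 6.98 CPM in KO a, b and c. *Chac1* and *Slc7a11* were low throughout, with group means of 0.291 and 1.76 CPM and of 2.30 and 0.408 CPM in WT and KO. *Atf4*, *Ppp1r15a* and *Ddit3* were named here after their values were seen, as the best-known genes of the branch. Their log2 fold changes were -0.46, -0.73 and -0.14. The first pair passed the test and *Ddit3* did not (edgeR Benjamini-Hochberg adjusted p = 0.387). The 6 genes of the list that rose included *Trib3* (1.26), *Asns* (0.57) and *Phgdh* (0.36), also named after their values were seen. *Ddit3*, the death-promoting factor CHOP, was at 9.05 ± 0.252 CPM in WT hearts and 8.19 ± 0.863 CPM in KO hearts (n = 3 each, SD). Of the plasma cell markers only *Mzb1* was tested, at 0.459 to 0.695 CPM in WT and 1.07 to 1.503 in KO (higher), and *Jchain*, *Igkc* and *Ighm* were not in the table.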

How the data were processed

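Total RNA of E18.5 hearts was depleted of ribosomal RNA and sequenced with paired ends, in 3 libraries of WT and 3 of *Pkm1*-KO embryos. The submitters' processing notes name cutadapt 1.18, HISAT2, StringTie and the mm10 build, and the program that counted reads per gene is not given in the sources used here. The authors deposited, for each gene symbol, the raw counts of every library and their own edgeR results (logFC, logCPM, p-value and FDR), which were not used. The lowest sum over the 6 libraries was 59 counts. No pair of libraries of a genotype differed by less than the sampling noise (chi-square over its degrees of freedom 1.56 to 3.57). The methods call the libraries biological replicates, and whether each came from 1 embryo is not stated.

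Counts were scaled with TMM, filtered with filterByExpr and tested with edgeR 4.0.16 in R 4.3.3 by the quasi-likelihood test on genotype, without covariates. P-values were adjusted by Benjamini-Hochberg over 13804 genes, and genes were called at an adjusted p under 0.05. The test was tried on simulated counts in which 200 of 13804 genes were changed 1.5-fold, with the same variability for all genes. It called 177 of these 200 and 13 unchanged genes. The called members all changed by less than 1.5-fold, a size that this trial did not cover. Every member is named, values per library are given for up to 3 called members of a role and for the sensors and *Xbp1*, and of each other ER list and the PERK list up to 3 called genes with the largest change are named. The members and all lists were chosen with earlier results of these data known. Alternatives were RLE size factors, TMM without *Rn45s* and *Ttn*, DESeq2 1.42.0, voom of limma 3.58.1, edgeR's exact test, no filter, at least 10 counts in every library, no genes on X and Y, and each library left out. Positions and exon lengths are from GENCODE for GRCm38, and promoters from RefSeq for GRCm38.p6. Figures were drawn with matplotlib in Python.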

Additional observations from a re-analysis of the deposited data

How the results depend on the processing

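The 9 called members kept their direction in all 14 alternatives, and *Hspa5*, *Calr*, *Ero1l*, *Eif2ak3* and *Xbp1* kept their call in each, while *Hsp90b1*, *Manf*, *Sel1l* and *Atf6b* lost it in 1 to 4 of them. The number of members that rose was 2, and was 1 with DESeq2 and 1 to 3 with a library left out (1 without WT b or without KO c). The number that fell was 7, and was 6 to 10 with a library left out. The number of other ER and secretory genes that fell was 16, and was 9 with DESeq2 and 7 to 16 with a library left out (10 without WT b, 7 without KO a). The cause was not tested. The counts over all genes and over the PERK list, and that of the other ER and secretory genes that rose, stayed within 1.5 times their value. Those of single roles and lists are small and moved further. With DESeq2 the genes that fell went from 5 to 2 among other ERAD genes, from 2 to 1 in targeting and glycosylation, from 1 to 0 in other folding and from 4 to 1 among fibroblast markers, and those that rose went from 1 to 0 among the sensors, in ER exit and among cardiomyocyte markers. With a library left out, luminal chaperones lower ran from 2 to 5, ERAD members lower from 0 to 2, other ERAD genes lower from 1 to 4, other folding genes higher from 3 to 6, targeting genes lower from 0 to 3 and fibroblast markers lower from 1 to 5. *Dnajb9*, *Pdia4*, *Pdia6*, *Herpud1*, *Sec61b*, *Sec61g* and *Ssr3*, not called with all libraries, were called in 1 to 3 alternatives.

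Estimates near 0 changed sign for genes that were never called. *Sdf2l1* was at 0.013 with voom and *Canx* at 0.00129 with at least 10 counts in every library. With a library left out, log2 fold changes ran from -0.0383 to 0.082 for *Dnajc10*, -0.132 to 0.0697 for *Sdf2l1*, -0.0329 to 0.0205 for *Canx*, -0.153 to 0.0319 for *Creld2*, -0.111 to 0.0108 for *Ero1lb*, -0.0267 to 0.0548 for *Edem1*, -0.0397 to 0.0082 for *Edem3*, -0.097 to 0.0169 for *Syvn1*, -0.00696 to 0.077 for *Derl1*, -0.0993 to 0.0053 for *Atf6*, -0.0542 to 0.0129 for *Sec61a1*, -0.0615 to 0.0202 for *Spcs2* and -0.079 to 0.029 for *Nfyb*.

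No paired analysis was possible because replicate numbers are not part of the column names. Summing libraries was not run, since no pair differed by less than the sampling noise. With 3 libraries per genotype the 95% confidence intervals of the members spanned 0.11 (*Hsp90b1*) to 0.58 (*Ero1lb*) on the log2 scale, so small changes of low genes were not detectable. All KO libraries lacked Y-linked counts, and sex and genotype cannot be told apart. Leaving out the genes on X and Y does not remove this.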
